A study of Pinctada fucata with 3 samples.

Results

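The comparison described here is that of the mantle of pearl oysters (Pinctada fucata) injected with double-stranded RNA (dsRNA) against poI-kappaB, the oyster's IκB, with the mantle of oysters injected with dsRNA against green fluorescent protein (GFP), a protein that oysters lack. Its members are the 20211 genes, of 33072 listed, whose mean over these 2 libraries was at least 1 FPKM (fragments for each kilobase of transcript in every 1000000 mapped). Another library came from oysters injected with dsRNA against Pf-Rel, and its values are given beside the others where they help. Every group received 30 μg of dsRNA in the adductor muscle, held 5 healthy adult oysters, and was sampled after 7 days. The GFP group shares the injection and the exposure to dsRNA with the others. Each group is 1 library of mantle, so variation among oysters is not visible, no p-value was computed, and a fold change describes these libraries. The labels do not say whether the pieces of the 5 oysters were pooled.

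NF-κB factors such as Rel are transcription factors that IκB proteins hold inactive in the cytoplasm. When IκB is degraded after an immune stimulus, the factor enters the nucleus and acts on its target genes. The mantle builds the shell: its cells export matrix proteins and enzymes that shape the calcium carbonate layers, and such secretory tissue is known for a few very abundant transcripts. The study asked what part NF-κB signalling has in biomineralization. The deposited table gives gene identifiers without names and no annotation was used, so the IκB transcript, the shell matrix genes, the immune genes and the markers of mantle cell types were not analysed here, and neither the knockdown nor the tissue label was checked. Transcripts are therefore described by their level, their rank and the FPKM they gained or lost.

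The IκB dsRNA library differed from the GFP dsRNA library at every level of abundance, and in both directions. Of the 20211 genes, 3820 (18.9%) were higher with IκB dsRNA by 2-fold or more and 3827 (18.9%) were lower by as much on the scale of log2(FPKM + 1), 37.8% together, and 12564 lay between. With upper-quartile scaling, which moved the median log2 ratio of all genes to 0.14, these counts were 4580 and 2995, so that 60.5% of the genes past 2-fold were higher in place of 50%. Larger differences were more often increases. A factor of 4 was reached by 1575 higher genes (7.79%) and 1103 lower genes (5.46%). A factor of 16 was reached by 170 higher genes (0.841%) and 66 lower genes (0.327%). The median log2 ratio was -0.06, and 10% of genes lay below -1.53 and another 10% above 1.76. The pseudocount of 1 understates the change of low genes. FPKM are relative amounts from bulk tissue, so fewer cells of a type and less RNA per cell cannot be told apart.

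**Figure D1:**
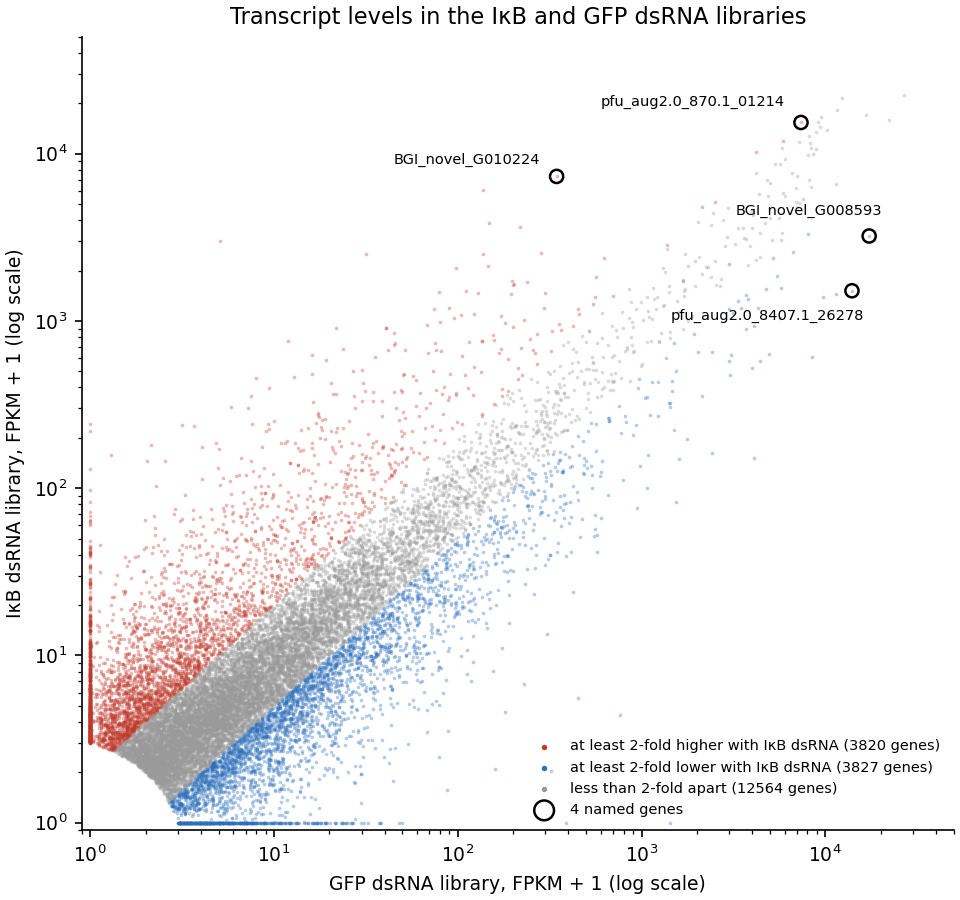
Each point is 1 of the 20211 genes, with FPKM + 1 in the GFP dsRNA library on the x axis and in the IκB dsRNA library on the y axis, both on log scales; circles mark the 4 named genes. The 3820 higher and 3827 lower genes spread over the whole range of levels, and the columns of points at the left and lower edges are genes listed at 0 in 1 library.

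The differences took up a large part of what the mantle libraries held. The 3820 genes at least 2-fold higher held 21.9% of the FPKM in the library with IκB dsRNA and 4.73% with GFP dsRNA. The 3827 genes at least 2-fold lower made up 7.49% with IκB dsRNA and 29.5% with GFP dsRNA. Genes less than 2-fold apart held 70.2% with IκB dsRNA and 65.5% with GFP dsRNA, and the 12861 genes below the mean of 1 FPKM held 0.431% and 0.308% in the same libraries. These shares restate the values by which the genes were sorted. Of the FPKM gained with IκB dsRNA, 58.8% lay with genes past 2-fold and 41.2% with genes less than 2-fold apart. Of the FPKM lost, 70.8% lay with genes past 2-fold and 29.2% with the others.

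Few transcripts carried 50% of the FPKM gained or lost, as was also so for the FPKM of each library. Summed over genes, 325826 FPKM were gained with IκB dsRNA, by 9586 genes, and 367243 FPKM were lost, by 10599 genes. Of the gain, 25% came from 14 genes and 50% from 49 genes. Of the loss, 25% likewise came from 14 genes and 50% from 56 genes. For comparison, 50% of all FPKM was held by 78 genes with IκB dsRNA and by 86 genes with GFP dsRNA. The sums depend on the scale: with each library rescaled to a sum of 1000000 (TPM) they were 301561 gained and 302897 lost, nearly equal by construction, and with upper-quartile scaling 428380 gained and 280942 lost, so which sum is larger is set by the scaling.

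**Figure D2:**
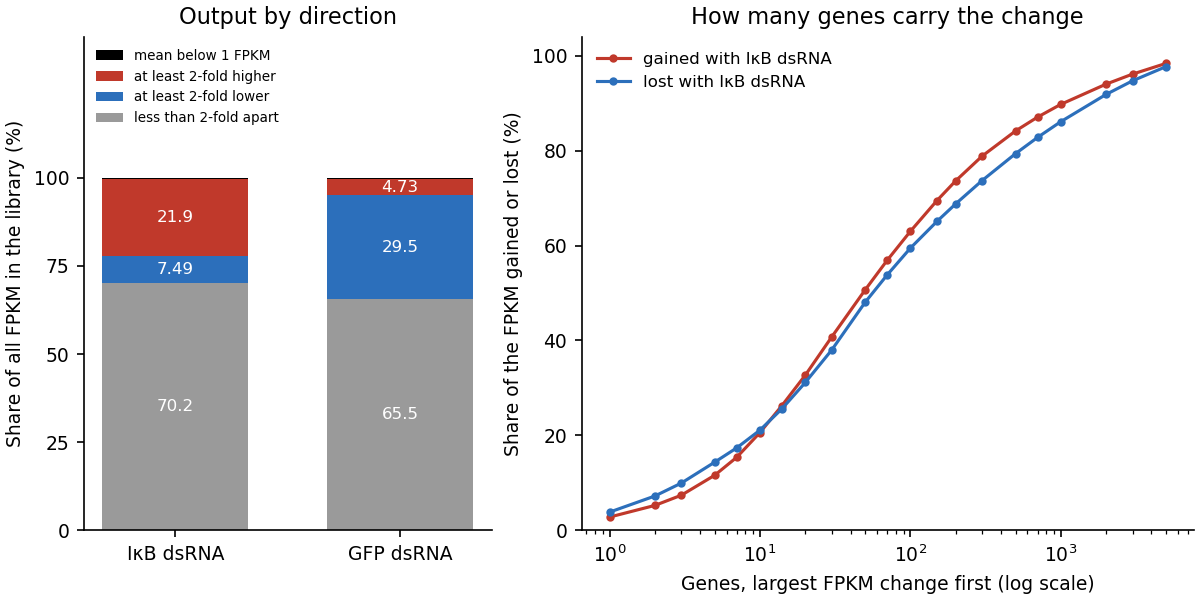
Left, the share of all FPKM held by genes past 2-fold upward, past it downward and in between, in the IκB and the GFP dsRNA library (1 library each); right, the share of the total FPKM gained or lost against the number of genes, counted from the largest change, on a log scale. Genes that were higher hold 21.9% of the IκB dsRNA library and 4.73% of the GFP dsRNA library, and both curves pass 50% at about as many genes, 49 for the gain and 56 for the loss.

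The largest gain in FPKM among genes past 2-fold was that of pfu_aug2.0_870.1_01214. It stood at 15356 FPKM with IκB dsRNA, at 13533 FPKM with Rel dsRNA and at 7372 FPKM with GFP dsRNA, a log2 ratio of 1.06 for IκB over GFP dsRNA. This already abundant transcript just passed 2-fold, and its rank in the library was 8 with IκB dsRNA and 27 with GFP dsRNA. The next was BGI_novel_G010224, at 7309 FPKM with IκB dsRNA, at 7109 FPKM with Rel dsRNA and at 344 FPKM with GFP dsRNA. Its log2 ratio was 4.41, and it ranked 28 with IκB dsRNA and 368 with GFP dsRNA. Both genes were higher with IκB and with Rel dsRNA than with GFP dsRNA. The first of them already stood among the leading transcripts with GFP dsRNA.

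The largest loss was that of BGI_novel_G008593, a transcript of rank 64 with IκB dsRNA and 3 with GFP dsRNA. It stood at 3218 FPKM with IκB dsRNA, at 2945 FPKM with Rel dsRNA and at 17321 FPKM with GFP dsRNA, a log2 ratio of -2.43. The second was pfu_aug2.0_8407.1_26278, of rank 119 with IκB dsRNA and 5 with GFP dsRNA. It stood at 1513 FPKM with IκB dsRNA, at 577 FPKM with Rel dsRNA and at 13966 FPKM with GFP dsRNA, and its log2 ratio was -3.21. These genes together accounted for 7.23% of all FPKM lost. The Rel dsRNA values are set against the same GFP dsRNA library, so a likeness between the IκB and Rel dsRNA libraries is not independent of it.

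The transcripts next in order showed the same kinds of change. Among the gains, the transcript in place 5 was at 6054 FPKM with IκB dsRNA, at 1197 FPKM with Rel dsRNA and at 136 FPKM with GFP dsRNA. That in place 6 was at 3827 FPKM with IκB dsRNA, at 2319 FPKM with Rel dsRNA and at 146 FPKM with GFP dsRNA. Both stood among the leading transcripts with IκB dsRNA, at ranks 35 and 55, and much lower with GFP dsRNA, at ranks 786 and 748. Place 8 was at 2988 FPKM with IκB dsRNA, at 14.4 FPKM with Rel dsRNA and at 4.09 FPKM with GFP dsRNA, so only the IκB dsRNA library of the 3 held it at a high level. Places 7, 11 and 12 were highest with Rel dsRNA, at 4145, 4005.5 and 7269 FPKM. With IκB dsRNA they were at 3664, 2497 and 2522 FPKM, and with GFP dsRNA at 217, 30.7 and 135 FPKM. In contrast, places 3, 4, 9 and 10 were transcripts above 2000 FPKM with GFP dsRNA whose folds lay between 2.02 and 2.44. With Rel dsRNA they were at 9941, 7089, 1252 and 3800 FPKM. Place 9 was thus lower with Rel dsRNA than with GFP dsRNA, where it was at 2139 FPKM.

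Among the losses, places 3 to 5 had 1448, 1388 and 609 FPKM with IκB dsRNA and 11471, 9722 and 8472 FPKM with GFP dsRNA. They ranked at 127, 133 and 249 with IκB dsRNA and all within the first 18 with GFP dsRNA. The steepest of the first 12 losses was place 11, at 151 FPKM with IκB dsRNA, at 127 FPKM with Rel dsRNA and at 4090 FPKM with GFP dsRNA, a 27-fold difference. None of these 12 transcripts was listed at 0 with IκB dsRNA.

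By mean over the 2 libraries, the most abundant transcripts split into a broad, modest gain and a few deep losses. Of the 25 genes with the highest mean over the 2 libraries, 19 were higher with IκB dsRNA than with GFP dsRNA, 2 of them past 2-fold, and 2 were more than 4-fold lower. Their median log2 ratio was 0.49 for IκB over GFP dsRNA and -0.17 for Rel over GFP dsRNA. They held 27.7% of all FPKM with IκB dsRNA and 23.2% with GFP dsRNA. The split depended on the ranking. Of the 25 highest with GFP dsRNA, 14 were higher with IκB dsRNA, 0 of them past 2-fold, and 6 were past 2-fold lower. Of the 25 highest with IκB dsRNA, 23 were higher with IκB dsRNA, 3 of them past 2-fold, and 0 were past 2-fold lower. The median log2 ratios of these lists were 0.23 and 0.62. The single most abundant transcript in both libraries stood at 22500 FPKM with IκB dsRNA and 26938 FPKM with GFP dsRNA, and the transcript of rank 4 in both at 17047 and 16578 FPKM in the same order. The transcript of rank 3 by mean was at 21478 FPKM with IκB dsRNA, at 17386 FPKM with Rel dsRNA and at 12360 FPKM with GFP dsRNA. For IκB over GFP dsRNA, the median of the first 25 by mean was above 0 under each scaling. It was 0.54 on the TPM scale and 0.73 with upper-quartile scaling. The median for Rel over GFP dsRNA was not recomputed under other scalings. The FPKM summed to 1006661 with Rel dsRNA and to 1166698 with GFP dsRNA, and whether the sign of that median rests on the scaling was not tested.

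**Figure D3:**
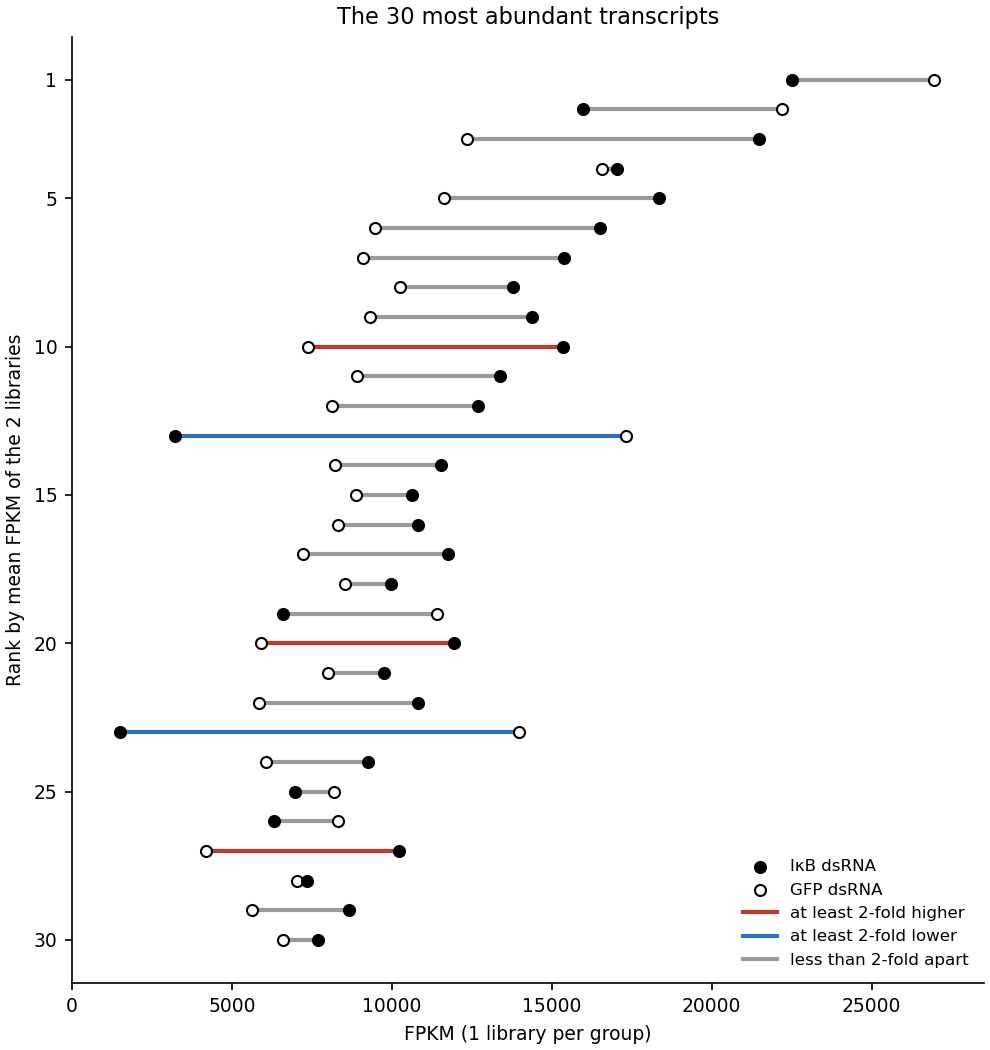
Each row is 1 of the 30 transcripts with the highest mean FPKM, in order of that mean, with its FPKM in the IκB dsRNA library (filled) and the GFP dsRNA library (open) on the x axis and a line coloured by whether they are at least 2-fold apart. Most filled points lie somewhat to the right of the open ones, and the transcripts of rank 13 and 23 lie far to the left of them, at 3218 against 17321 FPKM and 1513 against 13966 FPKM.

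In the same ranking by mean, the balance just below this level was the other way. Of the 25 genes at ranks 26 to 50 by mean, 10 were higher with IκB dsRNA, and of the 50 genes at ranks 51 to 100, 15 were higher. The median log2 ratio was -0.15 for ranks 26 to 50 and -0.43 for ranks 51 to 100. Among ranks 51 to 100, 4 genes (8%) were past 2-fold upward and 16 (32%) past it downward, beside 18.9% each way over all genes and 20.1% and 25.6% over genes at 100 FPKM or more. Genes of ranks 51 to 100 had a median of 2420 FPKM with IκB dsRNA, of 1830 FPKM with Rel dsRNA and of 3695 FPKM with GFP dsRNA. For ranks 26 to 50 the sign depended on the scaling (-0.10 on the TPM scale, 0.09 with upper-quartile scaling), while ranks 51 to 100 stayed below 0 in both (-0.38 and -0.19). Among ranks 101 to 200, 22 genes (22%) were higher and 24 (24%) lower past 2-fold, close to the shares over all genes at that level of 100 FPKM or more.

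The leading set of each library was partly replaced. Of the 10 most abundant transcripts with IκB dsRNA, 6 were also among the 10 most abundant with GFP dsRNA, and of the 100 most abundant, 74 were shared. The 26 transcripts that entered the first 100 with IκB dsRNA had a median of 2498 FPKM there, of 2017 FPKM with Rel dsRNA and of 1320 FPKM with GFP dsRNA, and 3 of them came from beyond rank 1000 with GFP dsRNA. The 26 that left it had a median of 1188 FPKM with IκB dsRNA, of 882 FPKM with Rel dsRNA and of 3874 FPKM with GFP dsRNA, and their lowest rank with IκB dsRNA was 690. The entering transcripts held 6.86% of all FPKM with IκB dsRNA and 2.47% with GFP dsRNA. The leaving ones held 2.52% with IκB dsRNA and 10.9% with GFP dsRNA. Entry to the first 100 came in a few cases from very low levels, whereas no transcript that left it ranked beyond 1000 with IκB dsRNA. This contrast was particular to the first 100. For the first 1000, transcripts that left fell as far as rank 29007 with IκB dsRNA. Those that entered came from as far as rank 31620 with GFP dsRNA. A list picked in 1 library tends to be lower in the other, so both lists are given.

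Abundant transcripts are here those that average 100 FPKM or more. Of 1026 such genes, 206 were higher (20.1%, against 18.9% of all genes) and 263 were lower (25.6%, against 18.9%), or 45.7% together against 37.8%. The gap to all genes closed with a pseudocount of 0.1 FPKM in place of 1, at 46.0% of the abundant genes and 45.7% of all genes. The shares that rose most were those at means of 1 to 2 FPKM, to 53.7%, and 2 to 5 FPKM, to 46.9%. Classes of mean between 5 and 100 FPKM then had 39.9% to 42.7%. Those from 100 to 1000 FPKM had 46.5% to 51.5%, and the class of 1000 FPKM or more had 32.1%. With the pseudocount of 1, the share was 39.1% over all genes averaging 5 FPKM or more, below the 45.7% of the abundant genes. The balance between the directions turned with upper-quartile scaling, which gave 248 higher and 221 lower. The 206 higher genes had a median of 393 FPKM with IκB dsRNA, of 312 FPKM with Rel dsRNA and of 62.9 FPKM with GFP dsRNA. The 263 lower genes had a median of 90.4 FPKM with IκB dsRNA, of 96.6 FPKM with Rel dsRNA and of 347 FPKM with GFP dsRNA. The increases were the steeper ones, with a median log2 ratio of 2.74 against -1.81 for the decreases. Differences of at least 16-fold were found for 45 higher genes (4.39%, against 0.841% of all genes) and 10 lower genes (0.975%, against 0.327%). With the pseudocount of 1, no gene with a mean below 5 FPKM was 16-fold apart, which lowers the shares over all genes.

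The values of the 45 genes at least 16-fold higher are a description, since the fold and the mean of 100 FPKM by which they were chosen fix a high level with IκB dsRNA and a low one with GFP dsRNA. With IκB dsRNA they lay between 190 and 7309 FPKM, with a median of 501 FPKM. With GFP dsRNA they lay between 0 and 344 FPKM, with a median of 18.2 FPKM, so the ranges overlap between the libraries though each gene differs widely. Their share of the library, set in the same way by the choice, was 4.36% with IκB dsRNA and, lower, 0.157% with GFP dsRNA. With Rel dsRNA, whose values were not used in the choice, it was 4.21%. The choice still favours low values with GFP dsRNA, the library it is set beside. The 10 genes at least 16-fold lower held 0.025% of all FPKM with IκB dsRNA, 0.0916% with Rel dsRNA and, by contrast, 0.852% with GFP dsRNA.

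The share of genes past 2-fold depended on the level in a way that was not monotonic. It was 35.9% at a mean of 1 to 2 FPKM, 37.6% at 10 to 20 FPKM, 46.0% at 100 to 200 FPKM, 51.2% at 200 to 500 FPKM and 50% at 500 to 1000 FPKM. At 1000 FPKM or more it was 32.1%, with 19 genes higher and 35 lower of 168. The middle 80% of log2 ratios ran from -2.13 to 3.02 at 500 to 1000 FPKM and from -1.94 to 1.02 at 1000 FPKM or more. Increases were the more frequent direction at 1 to 2 FPKM, with 923 higher and 547 lower, and decreases at 20 to 50 FPKM, with 318 higher and 488 lower. With upper-quartile scaling the class of 20 to 50 FPKM held 382 higher and 386 lower, so its direction rests on the scaling. The pseudocount narrows the ratios at low means: with 0.1 FPKM, the share was 53.7% at 1 to 2 FPKM and 39.9% at 10 to 20 FPKM, while the share at 1000 FPKM or more was 32.1% with either.

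**Figure D4:**
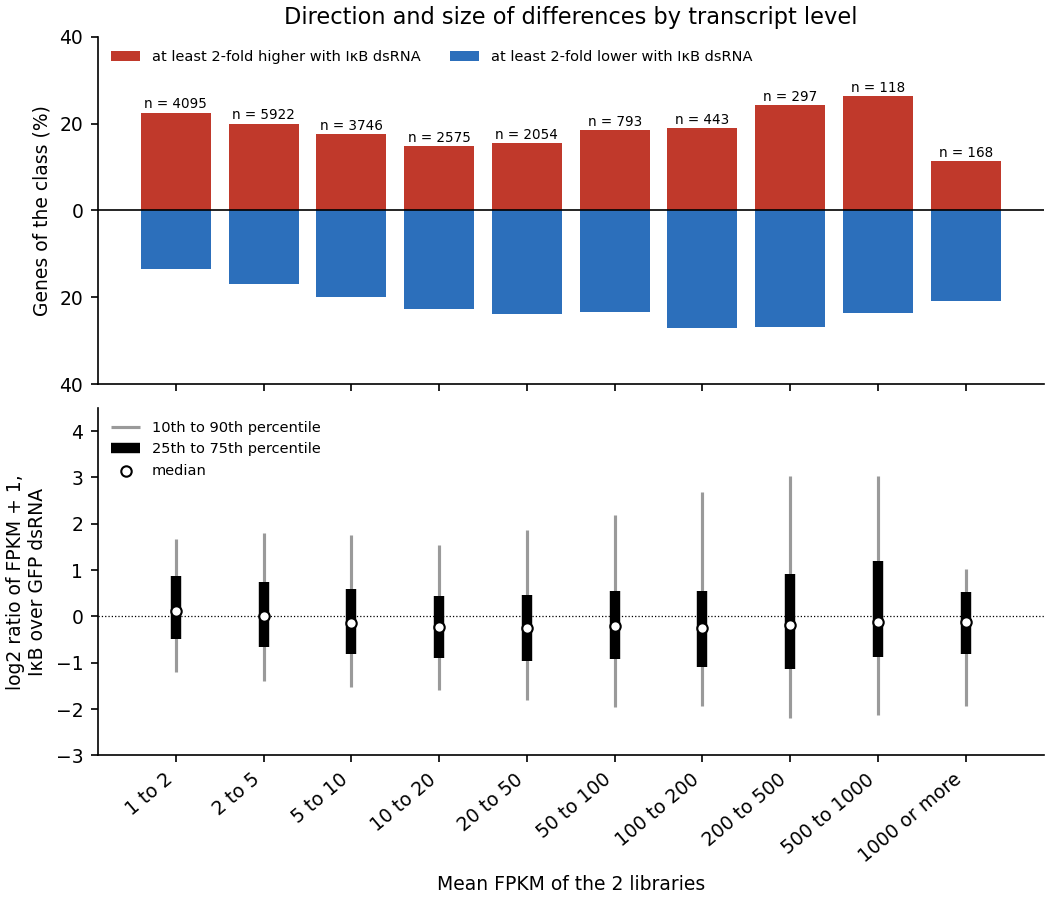
Top, the share of genes past 2-fold upward (red) and downward (blue) with IκB dsRNA, by class of mean FPKM over the 2 libraries, with the number of genes; bottom, the median and spread across genes of the log2 ratio of FPKM + 1 for IκB over GFP dsRNA. The spread is widest from 200 to 1000 FPKM, where the 90th percentile reaches 3.04 and 3.02, and narrows to 1.02 at 1000 FPKM or more.

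The 168 transcripts with a mean of 1000 FPKM or more held 61.1% of the library with IκB dsRNA and 61.2% with GFP dsRNA. The 19 that were at least 2-fold higher ranged from 1412 to 15356 FPKM with IκB dsRNA (median 2988), from 14.4 to 13533 FPKM with Rel dsRNA (median 2319) and from 4.09 to 7372 FPKM with GFP dsRNA (median 344). Of these, 8 were more than 16-fold higher. The 35 that were at least 2-fold lower ranged from 151 to 3314 FPKM with IκB dsRNA (median 1043), from 0 to 3148 FPKM with Rel dsRNA (median 753) and from 1501 to 17321 FPKM with GFP dsRNA (median 3975). They held 3.60% of all FPKM with IκB dsRNA, 3.48% with Rel dsRNA and 15% with GFP dsRNA.

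Genes listed at 0 in 1 library of the pair were mostly rare transcripts. Of the 20211 genes, 456 were listed at 0 with IκB dsRNA, and their median with GFP dsRNA was 4.04 FPKM. Another 754 were listed at 0 with GFP dsRNA, with a median of 3.77 FPKM with IκB dsRNA. At least 10 FPKM in the other library was reached by 65 genes listed at 0 with IκB dsRNA and by 120 listed at 0 with GFP dsRNA, and the highest values were 239.8 FPKM with IκB dsRNA and 1435 FPKM with GFP dsRNA. By the steps between low values the IκB dsRNA library was estimated at 1.17 times the depth of the GFP dsRNA library. A value of 0 in a table of FPKM is not shown to be absence, and the part of depth in these counts was not tested.

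The 2 kinds of identifier were close to the share over all genes, 18.9% in each direction. Among genes with pfu_aug2.0 identifiers, 1848 of 9903 (18.7%) were higher and 1776 (17.9%) lower past 2-fold. Among genes with BGI_novel identifiers, 1972 of 10308 (19.1%) were higher and 2051 (19.9%) lower. Abundant genes of the BGI_novel kind were higher in 23.0% of 534 and lower in 26.8%, and abundant genes of the pfu_aug2.0 kind were higher in 16.9% of 492 and lower in 24.4%, beside 20.1% and 25.6% of all abundant genes.

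Genes with neighbouring BGI_novel numbers tended to differ in the same direction. After leaving out pairs of identical values, 28.7% of the numeric neighbours of genes at least 2-fold higher with IκB dsRNA were higher as well and 18.9% were lower. At a distance of 10 numbers these shares were 19.6% and 18.8%, close to the 18.9% of all genes. For genes at least 2-fold lower, 24.6% of the neighbours were lower and 17.6% higher, and at a distance of 10 numbers 19.5% and 18.2%. Among abundant genes, again without pairs of identical values, there were 90 pairs of adjacent numbers and means of 100 FPKM or above on both sides, of which 23 were higher together, 15 lower together and 5 opposite. Of the 34 such pairs 100 numbers apart, 1 was higher together, 2 lower together and 5 opposite. What these numbers stand for is not given in the sources used here. Reads shared between near-identical copies would move neighbours together or apart, and their part was not tested.

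**Figure D5:**
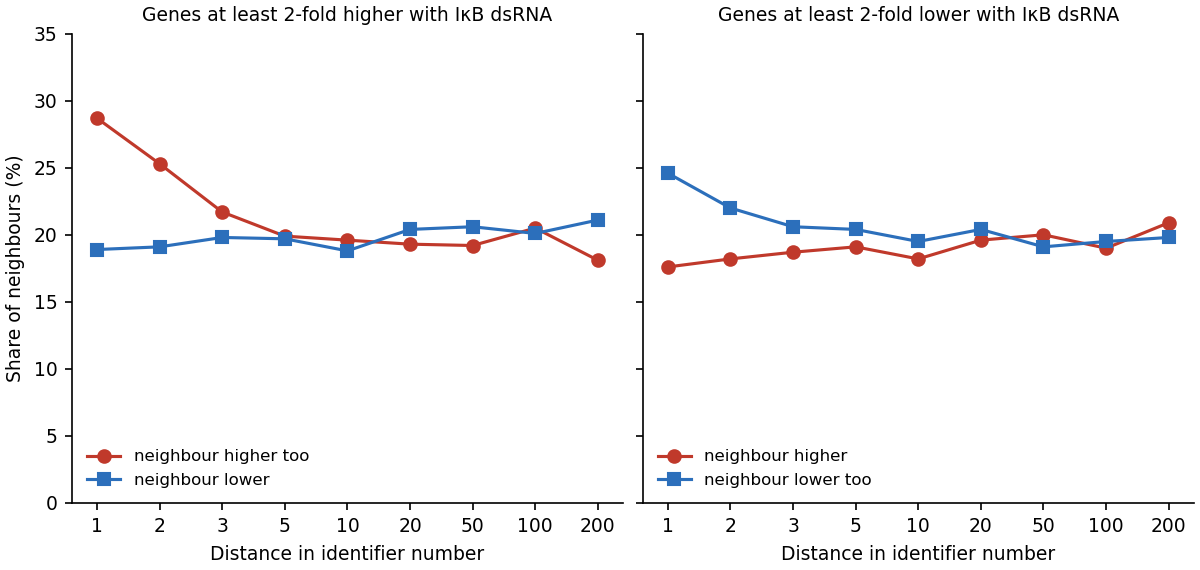
For BGI_novel genes past 2-fold upward (left) and downward (right) with IκB dsRNA, the share of genes at a given distance in identifier number that were higher or lower past 2-fold, with pairs of identical values left out. At a distance of 1 the share in the same direction is 28.7% on the left and 24.6% on the right, and from a distance of 5 on both directions lie near 20%.

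A tendency of the same kind was seen among pfu_aug2.0 identifiers that share their middle number. Adjacent genes of this kind were higher in 27.5% and lower in 16.4% where the gene itself was higher, over 2792 pairs. Where the gene was lower, 21.6% of the neighbours were lower and 16.8% higher. Adjacent numbers with a different middle number, 585 pairs, gave 20.1% higher and 17.4% lower around a gene that was higher. At a distance of 3 numbers the order was the other way: 24.9% were higher and 16.6% lower over 1257 pairs with a different middle number, and 20.3% and 17.8% over 1829 pairs with the same one. At a distance of 2 numbers, around a higher gene, 24.3% were higher with the same middle number and 21.1% with a different one. Around a lower gene, 21.6%, 22.2% and 17.3% were lower at distances of 1, 2 and 3 with the same middle number. With a different one these shares were 19.1%, 15.6% and 18.1%. The part of the middle number in this tendency was not tested.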

How the data were processed

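RNA from mantle was sequenced in 3 libraries, 1 per dsRNA. The authors deposited 1 table of FPKM values, rounded to 2 decimals, for 33072 genes. HISAT, Bowtie2 and RSEM are named without versions in the submitters' processing notes. Which tool did which step is not stated, and the build and gene models were likewise not given in the sources used here. Per the labels' protocols, poly(A) capture or removal of ribosomal RNA preceded library construction, without saying which was used for which library. Columns were matched to libraries by name and fields were split at runs of tabs.

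Genes averaging 1 FPKM or more over the IκB and GFP dsRNA libraries were kept, and the log2 ratio of FPKM + 1 (IκB over GFP dsRNA) was computed in Python 3.11.15 with pandas 2.3.3 and numpy 2.4.6. Genes at or past 2-fold were counted. FPKM are relative amounts, so a large change in abundant transcripts shifts the others. With 1 library per group no test was made. Depth in reads is unknown, so no interval or floor is given. Relative depth was taken as the most frequent ratio among 6412 genes at 0.3 to 3 FPKM in both libraries. Counting, scaling and the depth estimate were tested on simulated data, without noise for counting and scaling and with equal expression for the depth. These tests cover the code and do not show accuracy in these libraries.

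Genes are named by 1 rule: the 2 largest FPKM gains and the 2 largest losses among genes past 2-fold. Other transcripts are given by rank. Lists of shell matrix, NF-κB, muscle, cilia, haemocyte and ribosomal genes were not applied, for want of gene names. Of the 20211 genes, 864 shared all 3 values with another gene, in 404 sets. The members and lists were chosen with earlier results of these data known.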

Additional observations from a re-analysis of the deposited data

How the results depend on the processing

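No replicate could be left out, and no paired analysis was possible because each group is 1 library. Scalings (TPM, median-ratio, upper-quartile), a pseudocount of 0.1 FPKM and no filter on low values kept each count and each sum of gained or lost FPKM that was recomputed within 1.5 times of the reported value, as did counting identical genes once and keeping only genes above 0 in both libraries, both added after the data were seen. The 16 recomputed log2 ratios of the named genes kept their direction and stayed within 1.5-fold. A mean of at least 5 FPKM left 1710 genes higher and 2274 lower, because fewer genes were tested. At 3-fold, 2406 were higher and 1892 lower, and of the abundant genes 166 and 168. Setting abundant at 50 FPKM gave 353 higher and 449 lower, and at 200 FPKM 122 and 143, by construction of the class. Which direction was more frequent turned with the scaling: 3681 higher and 3449 lower on the TPM scale, 3910 and 3690 with median-ratio scaling. The depth in reads is unknown, which limits statements on genes below a few FPKM.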

Other observations

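The genes just inside the mean of 1 FPKM (1 to 1.1 FPKM, 512 genes) had medians of 1.13 FPKM with IκB dsRNA and 0.975 FPKM with GFP dsRNA, and 33.4% of them were at least 2-fold apart. The 611 genes just outside it (0.9 to 1 FPKM) had medians of 1.09 FPKM with IκB dsRNA and 0.79 FPKM with GFP dsRNA, and 35.4% of them were at least 2-fold apart.

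Output was concentrated to a like degree in both libraries. The 10 most abundant genes held 15.2% of all FPKM with IκB dsRNA, 13.5% with Rel dsRNA and 13.2% with GFP dsRNA, and 50% of all FPKM was held by 78, 105 and 86 genes in the same order. The FPKM sums of the libraries were 1126540, 1006661 and 1166698.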
